A study of Mus musculus with 6 samples.

Results

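Collagens, laminins and nidogens are the structural proteins of the extracellular matrix, and their genes were read here in the prefrontal cortex of mice housed alone or in groups. Members were every gene of the deposited count table whose symbol is a collagen chain (Col, a type number, a and a chain number), a laminin chain (Lama, Lamb or Lamc with a number) or a nidogen (Nid1, Nid2). The rule found 56 members among 23284 genes, of which 43 are collagen chains, 11 laminin chains and 2 nidogens. The rule itself reads symbols only, but the set was picked with earlier results of these data known.

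The animals were C57BL/6 mice (an inbred strain) of wild-type genotype, aged 8 to 10 weeks by their age label (8 weeks in the growth protocol) and kept for 6 days in single or in group housing. There were 3 prefrontal cortex libraries per housing condition and no other treatment or allele. Whether a library stands for 1 mouse is not stated in the labels. The p-values therefore cover only the spread between libraries, some of which may be technical.

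A collagen molecule is a helix wound from alpha chains, and each collagen type has its own set of chain genes. Fibrillar collagens such as types I and III form the ropes of connective tissue, which in the brain lies mainly in the meninges and around larger vessels. Collagen IV, laminins and nidogens build the basement membrane, the thin sheet under endothelial cells and around the brain surface. A few collagens, among them types XIX and XXV, are made by neurons, and types XXIII and XXIV are grouped with them here. The counts came from whole tissue, in which fewer cells of a type and less RNA per cell cannot be told apart.

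Total counts ran from 25858355 in group-housed replicate 1 to 33428512 in single-housed replicate 3. Genes with 10 or more counts in at least 3 libraries were tested, 15264 in all. Cortical neuron markers summed to between 9584 and 11017 CPM (counts scaled to 1 common library size) in each library, and Slc17a7, the vesicular glutamate transporter of cortical excitatory neurons, to between 1908 and 2168 CPM. The fibroblast collagens Col1a1 and Col3a1 had counts in every library. Choroid plexus markers were close to 0, at 2.998 to 7.92 CPM for 8 genes together. Striatal markers differed widely among libraries of one group. They summed to 1837, 877 and 275 CPM in single housing and to 844, 308 and 348 CPM in group housing (each time in the order of replicates 1 to 3, as in every such list here), so the first pair of single-housed libraries and the first group-housed library were high.

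No collagen, laminin or nidogen gene passed the test for housing. Of the 56 members, 54 had enough counts to be tested, and 0 had an adjusted p under 0.05 in edgeR's quasi-likelihood test with Benjamini-Hochberg adjustment, against 0% of all genes tested. The smallest adjusted p of a member was 0.9998, and 0.603 over all genes. DESeq2 and limma-voom also called 0 members. At an unadjusted p under 0.05 there were 2 members, Lamb2 and Col23a1, where 1.56% of all genes tested reached it. The single-housed values lay wholly above the group-housed ones for 4 genes, Col4a5, Col6a6, Lamb2 and Nid2, against 2.48% of all genes tested, and wholly below for 0 genes, against 2.38%.

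Small differences of the same sign were nonetheless common among the members. The estimated level was higher in single housing for 45 of the 54 tested members (83.3%) and lower for 9, with a median log2 difference of 0.10, while over all genes 7739 were higher and 7525 lower (50.7% higher). Marker lists of related cells had similar shares. Endothelial markers were higher for 10 of 13 (76.9%) and mural cell markers for 9 of 11 (81.8%). Fibroblast markers other than collagens were higher for 13 of 16 (81.25%). Cortical neuron markers went the other way, with 1 of 7 higher. The count of members rested in good part on 1 library. Without group-housed replicate 3 it was 32 of 54, and with the striatal marker level as a covariate it was 36 of 54. The share of all genes estimated higher was not counted in these fits. Members share libraries and cell types, so they are not independent observations of the housing conditions.

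The libraries differed in a way that cut across housing. Group-housed replicate 3 held the lowest value of 24 of the 54 members (44.4%, against 14.9% of all genes tested) and the highest of 0 members (all genes 16.5%). Single-housed replicate 1 held the highest value of 22 members (40.7%, all genes 16.1%). Group-housed replicate 1 held the highest value of 16 members (29.6%, all genes 26.1%) and the lowest of 14 (25.9%, all genes 26.5%). Both shares were near those of all genes. The 3 libraries with the highest striatal markers were also the 3 highest for 11 members (20.4%, all genes 10.99%): Col2a1, Col5a2, Col11a1, Col11a2, Col6a1, Col6a2, Col6a5, Col9a2, Col9a3, Col23a1 and Col24a1. The part of striatal tissue in their values was not tested.

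**Figure D1:**
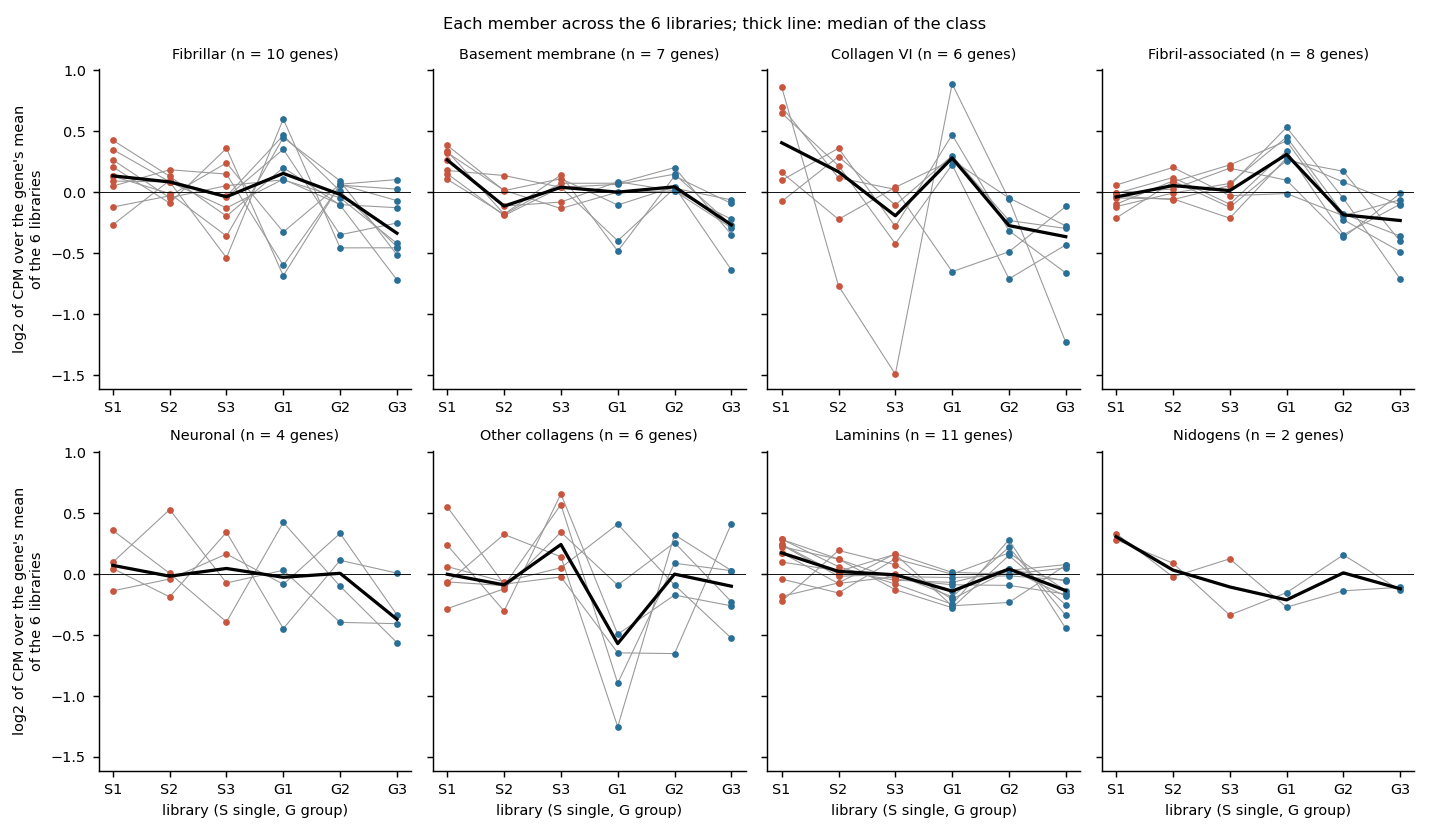
Each thin line is a tested member, drawn in the panel of its class across the libraries (S, single-housed, and G, group-housed, replicates 1 to 3); the y axis is the log2 of its CPM over its mean of the 6 libraries, and the thick line is the class median. Group-housed replicate 1 is the highest library for 6 of 8 fibril-associated collagens and 4 of 6 collagen VI genes, and group-housed replicate 3 the lowest for 24 of all 54 members.

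Promoter sequences of 4 members are shown, picked by their values in group-housed replicate 1: Col3a1 and Col25a1 were lowest there, Col5a1 and Col11a2 highest. Each is the 100 bases upstream of the annotated start, from RefSeq on GRCm38.p6, which is another build than the mm9 coordinates of the count table. They are at chr1:45311438-45311537 (Col3a1), chr3:130180745-130180844 (Col25a1), chr2:27886325-27886424 (Col5a1) and chr17:34039038-34039137 (Col11a2), all on the plus strand. Capitals mark a match to GGGCGG or its reverse complement CCGCCC, the core of the GC box.
Col3a1: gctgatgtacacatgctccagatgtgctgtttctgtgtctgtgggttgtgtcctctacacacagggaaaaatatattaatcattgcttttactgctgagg
Col25a1: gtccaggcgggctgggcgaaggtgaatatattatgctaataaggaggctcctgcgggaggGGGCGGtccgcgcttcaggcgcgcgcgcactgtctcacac
Col5a1: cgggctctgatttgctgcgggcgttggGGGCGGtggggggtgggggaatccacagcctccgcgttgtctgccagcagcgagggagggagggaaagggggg
Col11a2: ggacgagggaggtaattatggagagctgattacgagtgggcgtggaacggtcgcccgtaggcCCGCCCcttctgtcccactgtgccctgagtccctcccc
The match began 40 bases before the start in Col25a1, 73 in Col5a1 and 38 in Col11a2, and Col3a1 had none in this window. GC content was 43.0% for Col3a1, 64.0% for Col25a1, 71.0% for Col5a1 and 64.0% for Col11a2.

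With chromosome 18 left out, RefSeq promoter entries were found for 41 of the 56 members, with 45 windows of 250 bases upstream. GGGCGG, searched on both strands, was in 25 of the 45 windows (55.6%), against 32.7% of the 32851 windows of the 27025 genes with entries outside chromosome 18. CCAAT (or ATTGG) was in 33.3% of member windows and 33.8% of all windows, and TATAAA (or TTTATA) in 11.1% and 12.4%. Some members have more than 1 window, and a match is only a match of letters.

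Measured per length, as CPM per kb of exon (called the level per length), collagen VI, basement membrane collagens and laminins made up the largest shares of the members' summed level over the 6 libraries. Collagen VI took 23.6% of the sum, basement membrane collagens 19.2%, laminins 16.7%, fibrillar collagens 15.1%, fibril-associated collagens 13.0% and neuronal collagens 9.35%. The other collagens took 1.74% and the nidogens 1.31%. The order varied by library: basement membrane collagens were above collagen VI in single-housed replicate 3 (29.2 and 29.1) and group-housed replicate 2 (31.6 and 28.3), and laminins were above basement membrane collagens in single-housed replicate 2 (25.5 and 25.2) and in group-housed replicate 3 (22.995 and 22.917). In group-housed replicate 1, fibrillar collagens (24.2) and fibril-associated collagens (24.0) were both above laminins (22.8). The sum over all members was 155, 156 and 145 in single housing and 163, 142 and 121 in group housing, so the highest and the lowest total were both group-housed.

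**Figure D2:**
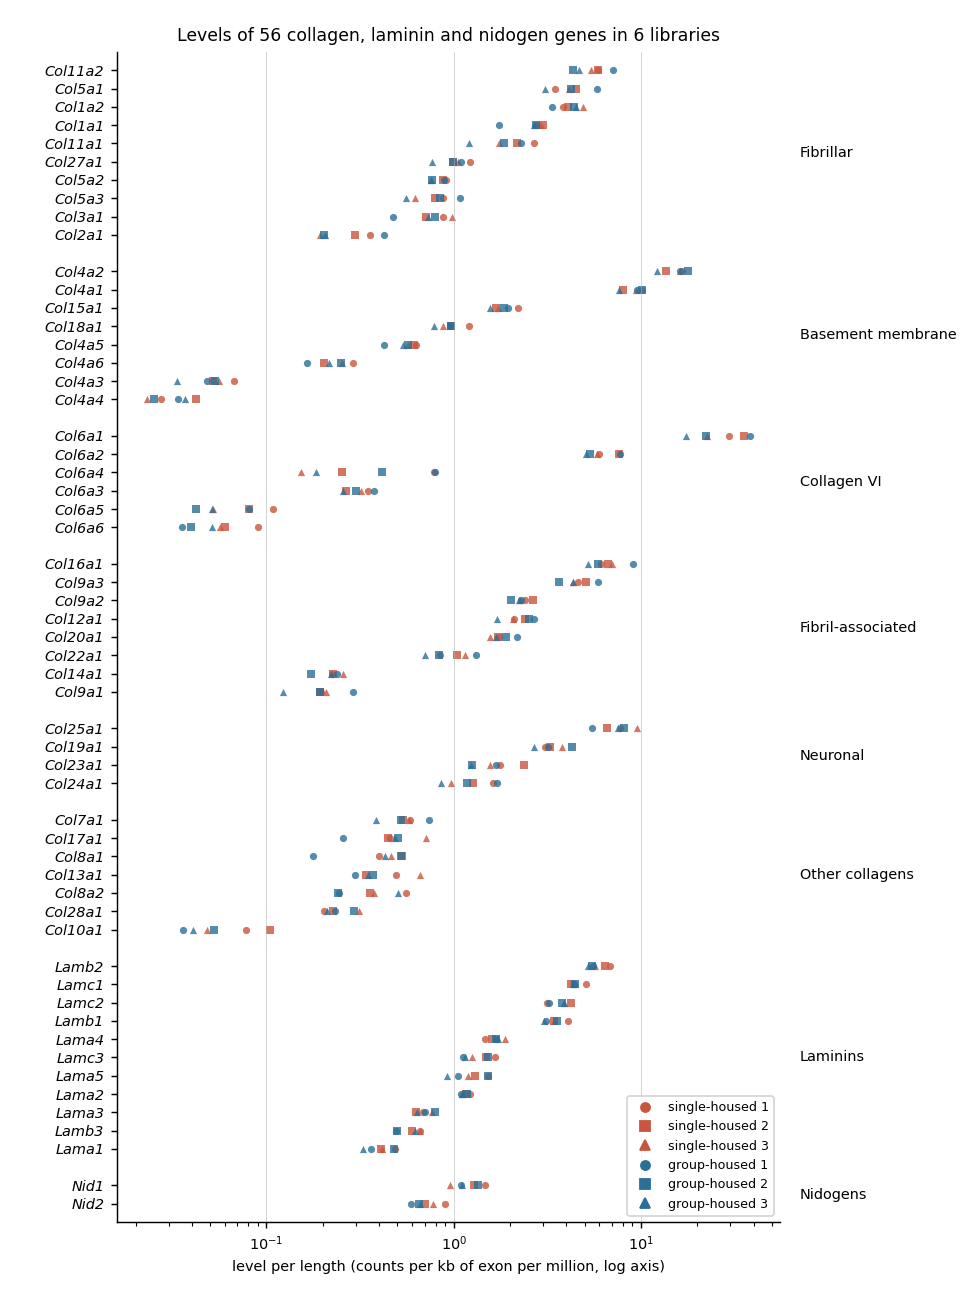
Level per length (CPM per kb of exon, log axis) of each member in each of the 6 libraries, by class, with single-housed libraries in red and group-housed in blue and a symbol for each replicate number. Col6a1 and Col4a2 stand highest, at means of 27.5 and 15.4 CPM per kb, and the values of the housing groups overlap for all tested members but Col4a5, Col6a6, Lamb2 and Nid2.

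Basement membrane collagens were carried by 1 gene pair. Col4a2 encodes the alpha-2 and Col4a1 the alpha-1 chain of collagen IV, the chains found in nearly all basement membranes. Col4a2 (chr8:11312829-11449287, mm9, as for all coordinates of genes here) had 107, 87.6 and 104 CPM in single housing and 104, 114 and 78.0 CPM in group housing. Col4a1 (chr8:11198423-11312826) had 67.3, 53.1 and 62.3 CPM in single housing and 63.4, 67.1 and 50.3 CPM in group housing. Both genes were lowest in group-housed replicate 3, and group-housed replicate 2 was the highest library for Col4a2 and just under single-housed replicate 1 for Col4a1. The means were 99.6 ± 10.5 and 98.9 ± 18.7 CPM for Col4a2 and 60.9 ± 7.20 and 60.3 ± 8.82 CPM for Col4a1 (SD, n = 3 each), and each log2 difference was 0.01 (SE 0.140 and 0.125). Per length, Col4a2 stood at 15.4 ± 2.11 and Col4a1 at 9.16 ± 1.09 (SD, n = 6), above 68.5% and 55.1% of all tested genes.

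The genes of this pair lie head to head on opposite strands with 2 bases between them in the deposited coordinates. Their ratio of level per length, Col4a1 to Col4a2, was 0.595 ± 0.0209 (SD, n = 6) and lay between 0.571 and 0.627 in every library, while the CPM of each gene varied more. The other collagen IV chains, found in specialised basement membranes such as those of the kidney filter and the lens, were far lower. Col4a5 (chrX:137909962-138123778) was at 0.557 ± 0.0742 per length and Col4a3 (chr1:82583496-82718634) at 0.0516 ± 0.0111, the lowest tested level of the class. Col4a4, with 6 to 11 counts per library, was left untested. In CPM, Col4a5 had 4.09, 3.98 and 3.72 in single housing and 2.74, 3.70 and 3.46 in group housing. Its groups did not overlap, but the gap between the closest libraries was small beside the spread inside the group-housed set, and the log2 difference was 0.25 (SE 0.152). Col4a3 differed by 0.38 (SE 0.301) on 9 to 19 counts per library.

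Col15a1 and Col18a1 encode the multiplexins, collagens with sugar side chains that sit at basement membranes, Col18a1 being the source of endostatin. Col15a1 (chr4:47220884-47326037) had 11.7, 8.996 and 9.21 CPM in single housing and 10.3, 9.82 and 8.35 CPM in group housing, with a log2 difference of 0.07 (SE 0.137). Col18a1 (chr10:76514924-76629275) had 6.96, 5.62 and 5.07 CPM against 5.56, 5.60 and 4.54 CPM, a difference of 0.17 (SE 0.157). Both were highest in single-housed replicate 1 and lowest in group-housed replicate 3. All 7 tested basement membrane collagens were estimated higher in single housing, with a median of 0.17 and a range from 0.01 to 0.38, and 6 of them were highest in single-housed replicate 1. The sum of the 13 endothelial markers also peaked in that library, at 369 CPM against 312 to 336 CPM in the other 5. The sum of the 11 mural cell markers did so at 247 CPM against 197 to 216 CPM. Taken 1 by 1, 11 of the 13 endothelial and 6 of the 11 mural markers were highest there. Their part in the collagen values was not tested.

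Laminins are cross-shaped molecules of an alpha, a beta and a gamma chain. In level per length the beta chains summed to 9.90 and the gamma chains to 9.55, while the 5 alpha chains summed to 5.19. Lamb2, the beta-2 chain of vascular and synaptic laminins, was the highest laminin at 5.87 ± 0.621 per length (SD, n = 6). Lamb2 (chr9:108382193-108392861) had 38.6, 35.9 and 32.1 CPM in single housing and 31.1, 31.0 and 29.5 CPM in group housing. All single-housed libraries were above all group-housed ones, by a gap of about 1 CPM at the closest pair. The means were 35.5 ± 3.27 and 30.5 ± 0.898 CPM (SD, n = 3 each) and the log2 difference 0.22 (SE 0.0894). That difference did not pass the adjusted test, and its unadjusted p in edgeR's quasi-likelihood test across all genes was 0.0366.

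The gamma-1 chain gene Lamc1 (chr1:155066052-155179916), part of most laminins, was nearly level across libraries, with 38.6, 32.4 and 33.7 CPM in single housing and 33.5, 33.8 and 33.0 CPM in group housing (log2 difference 0.06, SE 0.0871). Lamb1 (chr12:31950159-32014504), the beta-1 chain, had 23.5, 19.9 and 19.8 CPM against 18.03, 20.5 and 17.5 CPM, and its groups overlapped (0.17, SE 0.108). The ratio of Lamb2 to Lamb1 per length was 1.71 ± 0.102 and never fell below 1.56. Of the alpha chains, Lama4 (chr10:38685321-38829994) and Lama5 (chr2:179911078-179960564) are the endothelial ones. Lama4 stood at 1.67 ± 0.136 per length with a log2 difference of −0.04 (SE 0.113). Lama5 had 17.4, 14.9 and 13.5 CPM in single housing and 12.02, 17.3 and 10.5 CPM in group housing, so group-housed replicate 2 reached the top of the single-housed range (0.20, SE 0.185). The Lama5 to Lama4 ratio per length therefore ran from 0.531 to 1.04 across libraries.

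Lama2 (chr10:26701092-27336748), the alpha chain made by astrocytes and perivascular cells and mutated in a congenital muscular dystrophy, had a narrow spread. Its values were 11.9, 11.4 and 10.8 CPM in single housing and 10.6, 11.5 and 10.7 CPM in group housing, with a coefficient of variation of 4.74% over the 6 libraries and a log2 difference of 0.05 (SE 0.0942). Lamb3 (chr1:195128188-195170072), a chain of the epithelial laminin-332, had 2.69, 2.42 and 2.67 CPM against 1.99, 2.03 and 2.51 CPM (0.25, SE 0.162), and group-housed replicate 3 lay within the single-housed range. Lama1 had the lowest laminin level, 0.413 per length. Of the 11 laminins, 9 were estimated higher and 2 lower in single housing, with a median of 0.16, and single-housed replicate 1 held the highest value of 8. With group-housed replicate 3 left out the median was 0.05, and with the 3 libraries of high striatal markers left out it was 0.03.

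Nidogens link the laminin network to collagen IV. Nid1 (chr13:13529869-13604542) had 8.88, 7.77 and 5.79 CPM in single housing and 6.57, 8.15 and 6.67 CPM in group housing. Its lowest library was single-housed, and the means of 7.48 ± 1.57 and 7.13 ± 0.883 CPM (SD, n = 3 each) differed by 0.07 on the log2 scale (SE 0.171). Nid2 (chr14:20570479-20631009) had 4.40, 3.44 and 3.81 CPM in single housing and 2.89, 3.17 and 3.24 CPM in group housing. All single-housed values of Nid2 were above all group-housed ones, with means of 3.88 ± 0.483 and 3.10 ± 0.184 CPM and a log2 difference of 0.32 (SE 0.148) that did not pass the adjusted test. Nid2 shares 386 exon bases, 7.90% of its length, with the gene 2700060E02Rik on the opposite strand, which had 796 to 1012 counts per library. The strand setting of the counting is not given in the sources used here, so reads in those bases cannot be assigned with certainty. Nid1 was 1.71 ± 0.284 times Nid2 per length (SD, n = 6).

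Fibrillar collagens showed opposite patterns within the class. Col1a1 (chr11:94797584-94813170) and Col1a2 (chr6:4455697-4491543) encode the chains of collagen I, and Col3a1 (chr1:45368383-45406551) that of collagen III, the main fibres of the meninges and of large vessel walls. Col1a1 had 12.9, 14.1 and 13.8 CPM in single housing and 8.19, 12.9 and 12.6 CPM in group housing. Col3a1 had 4.88, 3.98 and 5.43 CPM against 2.63, 4.42 and 4.03 CPM. Col1a2 had 19.7, 21.0 and 25.4 CPM against 17.1, 22.5 and 23.1 CPM. All of them were lowest in group-housed replicate 1, and the other group-housed libraries lay inside the single-housed range or, for Col1a1 in replicate 3, just under it. The log2 differences were 0.27 (SE 0.164) for Col1a1, 0.36 (SE 0.208) for Col3a1 and 0.08 (SE 0.141) for Col1a2. Without group-housed replicate 1 these were 0.08, 0.17 and −0.05.

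Fibroblast markers other than collagens also had their lowest sum in that library. The sum of the 16 markers was 187, 190 and 214 CPM in single housing and 156, 196 and 195 CPM in group housing, and 13 of the 16 were estimated higher in single housing (median log2 difference 0.18). Of the 16 markers, 11 were lowest in group-housed replicate 1, while the other 5 were lowest elsewhere and 1 of these, Pdgfra, also a marker of oligodendrocyte precursors, was highest there at 59.3 CPM. The part of fibroblast content in the Col1a1 and Col3a1 values was not tested.

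Col5a1 and Col11a2 went the other way in the same library. Col5a1 (chr2:27741945-27895030), the alpha-1 chain of collagen V, which starts and limits fibril growth, had 29.4, 37.8 and 34.5 CPM in single housing and 48.8, 35.5 and 25.9 CPM in group housing. The group-housed libraries held both its highest and its lowest value, and the means of 33.9 ± 4.24 and 36.7 ± 11.5 CPM (SD, n = 3 each) differed by −0.11 on the log2 scale (SE 0.204). Without group-housed replicate 1 the difference was 0.14. Col11a2, a chain of collagen XI best known from cartilage and the inner ear, had the highest level per length of the class, 5.54 ± 0.982. It had 33.1, 32.9 and 30.2 CPM in single housing and 39.6, 24.4 and 26.1 CPM in group housing, so group-housed replicate 1 was again the highest of all.

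Per length, Col5a1 stood at 4.20 ± 0.941, which did not differ beyond its spread from Col1a2 at 4.18 ± 0.555 (SD, n = 6). Col1a1 was at 2.64 ± 0.457 and Col3a1 at 0.760 ± 0.172. Col1a1 was at 0.632 ± 0.0790 of Col1a2 per length, with a range from 0.523 to 0.734, whereas the collagen I molecule holds more alpha-1 than alpha-2 chains. Col11a1 (chr3:113733458-113923244) had 19.4, 15.8 and 12.6 CPM in single housing and 16.6, 13.5 and 8.79 CPM in group housing (0.30, SE 0.231). Leaving out group-housed replicate 3 gave 0.087, and leaving out group-housed replicate 1 gave 0.52. Col27a1 (chr4:62876446-62996024), a short fibrillar collagen of cartilage, had 9.34, 7.53 and 8.07 CPM against 8.34, 7.53 and 5.81 CPM (0.20, SE 0.154). Both were lowest in group-housed replicate 3. Col5a2 (chr1:45431176-45560127) lay 24624 bases from Col3a1 on the opposite strand and differed by 0.07 (SE 0.132). Col2a1, the cartilage collagen, was the lowest of the class at 0.280 per length. Of the 10 fibrillar collagens, 8 were estimated higher and 2 lower in single housing, with a median of 0.09.

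**Figure D3:**
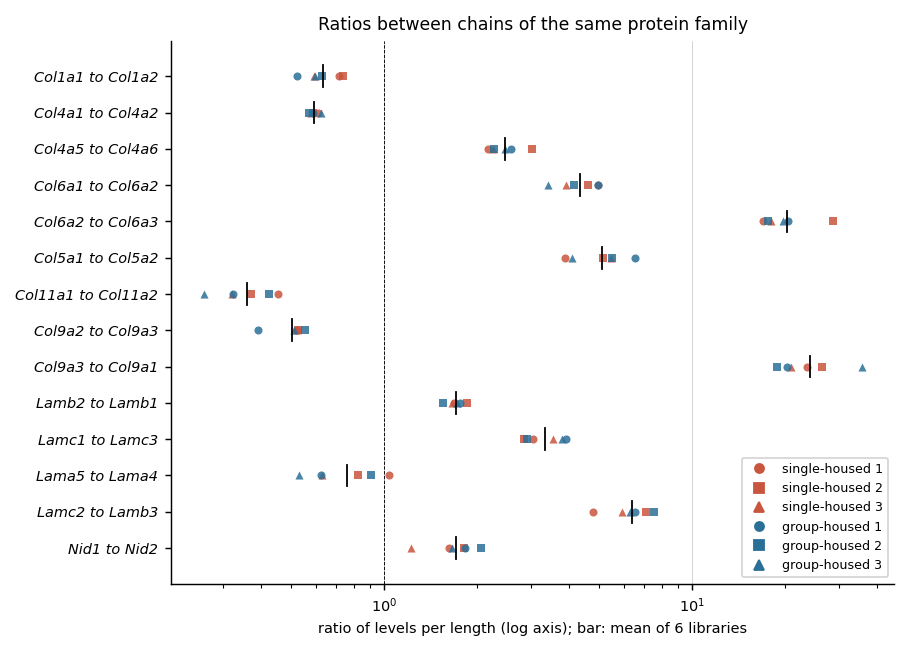
Ratio of level per length between chains that assemble together or belong to one family, in each of the 6 libraries (log axis), with the mean as a bar, single-housed libraries in red and group-housed in blue. The Col4a1 to Col4a2 ratio stays between 0.571 and 0.627 and the Lamb2 to Lamb1 ratio between 1.56 and 1.86, while Col9a3 to Col9a1 runs from 18.9 to 35.5. The last ratio rests on only 15 to 30 counts of Col9a1 per library, which limits its precision.

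Collagen VI, which forms beaded filaments around cells and vessels, was the most variable abundant class. Its alpha-1 gene Col6a1 (chr10:76171537-76188789) was the highest of all members at 27.5 ± 8.17 per length, above 81.2% of all tested genes. Col6a1 had 117, 141 and 90.1 CPM in single housing and 152, 88.0 and 69.2 CPM in group housing. The highest and the lowest library were both group-housed, so the means of 116 ± 25.2 and 103 ± 43.3 CPM (SD, n = 3 each) overlapped widely (log2 difference 0.17, SE 0.270). Without group-housed replicate 1 the difference was 0.56, with no adjusted call. Col6a2 (chr10:76058501-76086149), the alpha-2 chain, had 22.1, 28.6 and 21.7 CPM against 28.7, 19.9 and 19.0 CPM and shared the order of its extremes with Col6a1 (0.10, SE 0.175).

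Chain levels of collagen VI were far from equal. Col6a1 was 4.33 ± 0.621 times Col6a2 per length (SD, n = 6), and Col6a2 was 20.3 ± 4.31 times Col6a3, the long alpha-3 chain (chr1:92663435-92740548). Col6a3 had 3.79, 2.90 and 3.48 CPM in single housing and 4.06, 3.27 and 2.79 CPM in group housing (0.01, SE 0.181). Col6a5 (chr9:105758400-105862974) and Col6a6 (chr9:105591747-105730415) encode chains that can stand in for alpha-3 and were low. Col6a5 had 1.01, 0.747 and 0.480 CPM in single housing and 0.751, 0.393 and 0.476 CPM in group housing (0.48, SE 0.359), and its groups overlapped. Col6a6 had 0.672, 0.448 and 0.420 CPM against 0.263, 0.295 and 0.381 CPM, which is 7 to 22 counts per library. Its groups did not overlap, and the log2 difference of 0.70 (SE 0.330) did not pass the adjusted test. Col6a4, singled out after its values were seen, was the member whose CPM varied most between libraries, with 5.83, 1.88 and 1.14 CPM in single housing and 5.94, 3.08 and 1.37 CPM in group housing. Replicate 1 was the highest in both groups, and the highest library was 5.21 times the lowest. Of the 6 collagen VI genes, 5 were estimated higher and 1 lower in single housing, with a median of 0.14, and 4 were highest in group-housed replicate 1.

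Fibril-associated collagens lie on the surface of larger fibrils and split evenly, with 4 estimated higher and 4 lower in single housing and a median of 0.01. Group-housed replicate 1 held the highest value of 6 of the 8. Col16a1 (chr4:129725084-129776521), the highest of the class at 6.67 ± 1.35 per length, had 32.0, 34.6 and 36.5 CPM in single housing and 47.5, 30.7 and 27.0 CPM in group housing. Its single-housed values all lay inside the group-housed range, and the means of 34.3 ± 2.26 and 35.1 ± 10.9 CPM (SD, n = 3 each) differed by −0.03 (SE 0.187). Col12a1 (chr9:79446798-79566485), a collagen of tendon and fascia, had 24.5, 28.0 and 24.1 CPM against 31.4, 29.6 and 19.9 CPM (−0.08, SE 0.163), again with the group-housed values on both sides. Without group-housed replicate 1 the median of the class was 0.23.

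Col20a1 (chr2:180721240-180752245) was the member with the most negative estimate among those named for this class, with 7.30, 7.26 and 6.51 CPM in single housing and 9.17, 7.99 and 7.02 CPM in group housing (−0.20, SE 0.128). Its groups overlapped, since group-housed replicate 3 lay below the upper pair of single-housed values. Col9a2 (chr4:120712171-120727930), a chain of the cartilage collagen IX, had 6.62, 7.32 and 6.24 CPM against 6.31, 5.56 and 6.10 CPM (0.17, SE 0.118). Col14a1 (chr15:55139305-55352358) differed by 0.16 (SE 0.196). Col9a1, at 0.200 per length, was the lowest of the class.

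Of the 4 neuronal collagens, 3 were lowest in group-housed replicate 3 (Col19a1, Col23a1 and Col24a1) and Col25a1 in group-housed replicate 1, while each was highest in a different library. Col25a1 (chr3:129883763-130302801), a transmembrane collagen also known as CLAC-P that is needed for motor innervation, was the highest of the class at 7.46 ± 1.36 per length and stood above 49.99% of all tested genes. Col25a1 had 57.6, 49.0 and 70.9 CPM in single housing and 40.9, 60.4 and 56.2 CPM in group housing. Group-housed replicate 1 was the lowest, the other group-housed libraries lay inside the single-housed range, and the means of 59.2 ± 10.98 and 52.5 ± 10.2 CPM (SD, n = 3 each) differed by 0.17 (SE 0.166), or 0.019 without group-housed replicate 1. Col19a1 (chr1:24264522-24594276), a collagen of cortical interneurons that takes part in synapse formation, had 32.4, 34.6 and 39.9 CPM against 33.6, 44.9 and 28.3 CPM. Its log2 difference was 0.00 (SE 0.162), with the group-housed values enclosing the single-housed ones, and its level was 3.38 ± 0.560 per length.

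Col23a1 (chr11:51103422-51397427), another transmembrane collagen, had 9.95, 13.4 and 8.85 CPM in single housing and 9.50, 7.07 and 7.02 CPM in group housing. Its groups overlapped because group-housed replicate 1 lay above single-housed replicate 3. The means were 10.7 ± 2.39 and 7.86 ± 1.42 CPM (SD, n = 3 each) and the log2 difference was 0.45 (SE 0.183), with an unadjusted p of 0.036 in edgeR's quasi-likelihood test across all genes and no adjusted call. Col24a1 (chr3:144955436-145214969), a fibrillar collagen found in cortical neurons and bone, had 11.6, 9.09 and 6.90 CPM against 12.1, 8.44 and 6.13 CPM. Col24a1 thus ran over nearly the same range in both groups (0.05, SE 0.258) and was the lowest of the class at 1.27 ± 0.341 per length. Its 3 highest libraries were again those with the highest striatal markers. With the striatal marker level as a covariate the difference was −0.20.

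All 4 neuronal collagens had estimates of 0.00 or above, with a median of 0.11, and cortical neuron markers were estimated higher in single housing for 1 of 7 genes and lower for 6. The neuronal median was 0.24 without group-housed replicate 2. Summed per length, the class was at 14.2, 13.5 and 15.8 in single housing and 12.04, 14.8 and 12.3 in group housing.

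The remaining collagens form networks, anchoring fibrils or transmembrane proteins and were low. Col7a1, the anchoring fibril collagen of skin, was the highest of them at 0.557 per length, and Col28a1 the lowest tested at 0.246. Col10a1, a collagen of growth plate cartilage, was left untested at 3 to 11 counts per library. Col13a1 (chr10:61301246-61441856), a transmembrane collagen of the neuromuscular junction, had 1.43, 0.986 and 1.92 CPM in single housing and 0.864, 1.08 and 1.02 CPM in group housing (0.55, SE 0.271). Col17a1 (chr19:47720831-47766532), a hemidesmosome collagen, had 2.47, 2.42 and 3.84 CPM against 1.39, 2.75 and 2.64 CPM (0.36, SE 0.284). Col8a2 (chr4:125964038-125991574), a network collagen of the cornea and of vessels, had 2.41, 1.55 and 1.62 CPM against 1.05, 1.05 and 2.19 CPM (0.37, SE 0.323, and 0.82 without group-housed replicate 3). The groups of all of them overlapped. Of the 6 tested, all were estimated higher in single housing, with a median of 0.32.

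**Figure D4:**
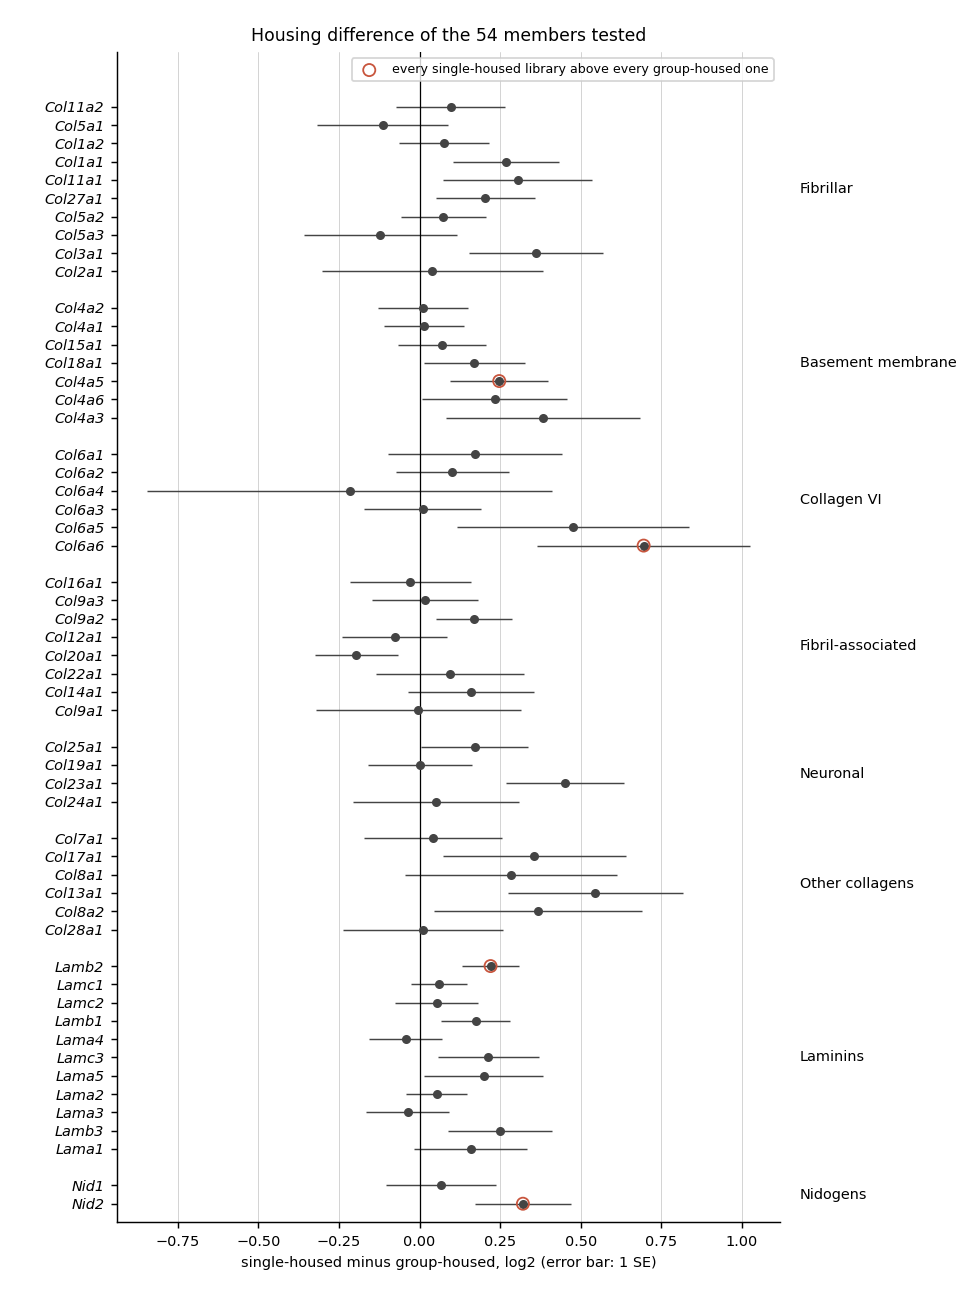
Log2 difference of each tested member, single-housed minus group-housed, with a bar of 1 standard error from edgeR's quasi-likelihood fit, by class; red rings mark the 4 members whose groups do not overlap. Of the 54 members, 45 lie to the right of 0 and 9 to the left, and 0 pass the adjusted test.

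Of the genes that fold, cut, bind and degrade these proteins, 0 tested genes were called, against 0% of all genes tested. Of 22 genes for folding and crosslinking, 20 were tested, 6 estimated higher and 14 lower in single housing (median log2 difference −0.03). Leprel1 and Lepre1, prolyl 3-hydroxylases, were at −0.36 (SE 0.206) and −0.12 (SE 0.0992), the latter with all single-housed values below all group-housed ones (all genes 2.38%), and P4ha1, a prolyl 4-hydroxylase subunit that stabilises the helix, at −0.11 (SE 0.0824). Of the 8 genes for procollagen processing, 6 were estimated higher and 2 lower (median 0.24). Adamts3, a protease that removes the amino-terminal propeptide, had means of 26.4 ± 3.80 and 21.4 ± 1.97 CPM in single and group housing (SD, n = 3 each) with all single-housed values above all group-housed ones, against 2.48% of all genes (0.30, SE 0.123). Pcolce, which speeds removal of the carboxy-terminal propeptide, did not overlap either, at 0.22 (SE 0.132). The groups of Adamts2 overlapped, and its log2 difference was 0.38 (SE 0.269).

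Of the 12 collagen and laminin receptors, 11 were tested, 7 estimated higher and 4 lower (median 0.06). Ddr2, a collagen-binding receptor kinase, was at 0.14 (SE 0.154), Itga1, the alpha chain of a collagen-binding integrin, at 0.19 (SE 0.222), and Dag1, the dystroglycan that binds laminin, at 0.08 (SE 0.101). Of the 11 other basement membrane components, 7 were estimated higher and 4 lower (median 0.06), with Papln, papilin, at 0.47 (SE 0.219), Smoc1 at 0.11 (SE 0.0976) and Fn1, fibronectin, at 0.16 (SE 0.181). Of 12 genes for matrix degradation, 11 were tested, 6 estimated higher and 5 lower (median 0.02). Timp4, Timp2 and Timp3, inhibitors of the metalloproteinases, were at −0.11 (SE 0.108), 0.07 (SE 0.0828) and 0.07 (SE 0.0884).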

How the data were processed

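The authors deposited raw counts of reads for each gene of the 6 libraries, not normalized; per the file headers the layout is that of featureCounts. The submitters' processing notes name FastQC, STAR, featureCounts and the build mm9. Tool versions, annotation release and strand setting: not given in the sources used here. Another deposited column, exon length in bases per the file headers, served for levels per length. Genes with 10 or more counts in at least 3 libraries were kept (15264 of 23284) and the 6 libraries were compared by edgeR's quasi-likelihood test (edgeR 4.0.16, R 4.3.3) with TMM normalization and Benjamini-Hochberg adjustment over all genes tested, threshold 0.05. The method was tested on simulated data, where it called 51.3% of genes changed by 1.5-fold and 84% of those changed by 2-fold. There were 34 false calls over 3 simulations of 15264 genes. The simulated counts varied independently from gene to gene, without shifts shared by many genes of a library. These shares need not hold for the real libraries. The common biological coefficient of variation was 11.8%. CPM and levels per length use TMM effective library sizes. Between libraries of a group, chi-square per degree of freedom was 9.79 to 38.7, so no pair agreed within sampling noise.

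Housing labels gave the groups and titles the replicate numbers. The members, the classes and the gene lists were chosen with earlier results of these data known. Named genes were 27 fixed by name and, per class, the 3 of smallest p and the highest and lowest level per length, and per pathway list the 3 of smallest p. Cell marker lists are given by sums, Pdgfra and Slc17a7 being named after their values were seen. Promoters came from RefSeq (GRCm38.p6), and coordinates of genes from the deposited table (mm9). Alternatives were DESeq2 size factors, no filter, filterByExpr, DESeq2 1.42.0, limma-voom (limma 3.58.1), robust empirical Bayes, each library left out, the replicate number as a block, the striatal marker mean as a covariate and plain library totals. A fit leaving out the 3 libraries of high striatal marker level was added after seeing the data.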

Additional observations from a re-analysis of the deposited data

How the results depend on the processing

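0 members were called under any alternative fit; plain library totals were run only for summed levels per length, not for calls. Over all genes, calls were 2 higher and 6 lower with DESeq2, 1 higher and 3 lower when the 3 libraries of high striatal marker level were left out, and 0 higher and 0 to 1 lower when a single library was left out (Nptxr without group-housed replicate 1, Egr2 without group-housed replicate 2). Correlations between single- and group-housed libraries of the same replicate number, as deviations from their group means, were 0.26, −0.32 and 0.16. With 3 libraries per group these cannot tell whether the replicate numbers pair the samples. With the replicate block 47 members were estimated higher, with a median of 0.13 for all members.

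The count of members estimated higher was 32 to 46 when a single library was left out, 41 when the 3 libraries were and 36 with the striatal covariate. For all genes this share was counted in the main fit only. Class medians with a single library left out ran from 0.047 to 0.17 for all members, 0.030 to 0.22 for basement membrane collagens, −0.028 to 0.48 for collagen VI, −0.14 to 0.23 for fibril-associated, 0.049 to 0.19 for fibrillar, 0.042 to 0.24 for neuronal, 0.15 to 0.43 for other collagens, 0.053 to 0.20 for laminins and 0.073 to 0.28 for nidogens. Leaving out the 3 libraries gave 0.23 for fibril-associated collagens, 0.032 for laminins and −0.053 for nidogens.

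Log2 differences that turned sign with the 3 libraries left out were Col5a1 0.17, Col5a2 −0.014, Col16a1 0.34, Col24a1 −0.078, Lama2 −0.042, Lama4 0.14, Lama5 −0.043, Nid1 −0.35, Col8a2 −0.0011, Itga1 −0.066, Dag1 −0.037, Timp2 −0.010 and Adamts2 −0.41. With the striatal covariate they were Col5a2 −0.017, Col4a1 −0.00070, Col15a1 −0.016, Col6a1 −0.024, Col6a3 −0.052, Col24a1 −0.20, Lama4 0.024 and Nid1 −0.049. Col16a1 was 0.019 with limma-voom and 0.010 with the replicate block. With a single library left out, ranges that crossed 0 were −0.26 to 0.044 for Col12a1, −0.062 to 0.13 for Col15a1, −0.19 to 0.25 for Col16a1, −0.14 to 0.21 for Col19a1, −0.049 to 0.15 for Col1a2, −0.16 to 0.33 for Col24a1, −0.10 to 0.10 for Col4a1, −0.13 to 0.13 for Col4a2, −0.31 to 0.14 for Col5a1, −0.047 to 0.56 for Col6a1, −0.043 to 0.31 for Col6a2, −0.11 to 0.16 for Col6a3, −0.023 to 0.17 for Dag1, −0.049 to 0.33 for Fn1, −0.056 to 0.34 for Itga1, −0.15 to 0.030 for Lama4, −0.019 to 0.11 for Lamc1, −0.075 to 0.22 for Nid1 and −0.00057 to 0.14 for Timp2. Of the other named members, 21 kept their sign but moved by over 1.5 times with a single library left out: 0.087 to 0.52 for Col11a1, 0.29 to 0.76 for Col13a1, 0.032 to 0.25 for Col14a1, 0.11 to 0.52 for Col17a1, 0.030 to 0.27 for Col18a1, 0.084 to 0.38 for Col1a1, −0.29 to −0.098 for Col20a1, 0.25 to 0.61 for Col23a1, 0.019 to 0.29 for Col25a1, 0.068 to 0.31 for Col27a1, 0.17 to 0.51 for Col3a1, 0.20 to 0.53 for Col4a3, 0.13 to 0.34 for Col4a5, 0.018 to 0.15 for Col5a2, 0.20 to 0.77 for Col6a5, 0.46 to 0.87 for Col6a6, 0.14 to 0.82 for Col8a2, 0.098 to 0.22 for Col9a2, 0.014 to 0.090 for Lama2, 0.053 to 0.44 for Lama5 and 0.085 to 0.24 for Lamb1. None of these had passed the test, and the cause was not tested.

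Members under about 1 CPM, such as Col6a6 and Col4a3, rest on few counts, which limits their precision.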

Other observations

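Emid2 and Colq, which the rule on symbols left out, are among the genes outside it whose products carry collagen helices. Emid2 (chr5:137217634-137358977, mm9), the older symbol of Col26a1, had 6.17, 5.77 and 6.21 CPM in single-housed replicates 1 to 3 and 7.40, 5.40 and 5.43 CPM in group-housed replicates 1 to 3. Its means were 6.05 ± 0.242 and 6.08 ± 1.15 CPM (SD, n = 3 each), and like Col16a1 and Col5a1 it was highest in group-housed replicate 1. Colq (chr14:32336270-32390569), the collagenous tail that anchors acetylcholinesterase, had 3.97, 2.21 and 3.72 CPM in single housing and 3.53, 4.22 and 6.06 CPM in group housing. Colq was highest in group-housed replicate 3, the library that held the highest value of 0 of the 54 tested members.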
